A study of Mus musculus with 12 samples.

Results

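Transcripts of 97 genes, taken by symbol as histone-modifying enzymes and chromatin remodellers, were measured on Illumina bead arrays. The hippocampal tissue was taken from C57BL/6J males aged 3 weeks. The members were taken by symbol: those starting with Kdm, Kmt, Setd, Smarc, Arid or Sirt, those with Hdac, Kat or Chd followed by a number, and Atrx, Ezh1, Ezh2, Eed, Suz12, Ep300 and Crebbp, with Kdm5c, Kdm5d and Kdm6a left out. They were read by 231 of the 45281 probes on the array, where 19057 genes were named in all. The rule itself uses no measured value, and it also takes in a pseudogene, Smarca5-ps. Role classes were set by symbol too, so a class name need not fit the activity of every member. The ethanol group was 6 arrays of offspring whose dams drank 10% (v/v) ethanol by choice between 0.5 and 8.5 days post-coitum, and the control group was 6 arrays labelled Control. Both groups were of the same strain, sex, age and tissue, and no other treatment is labelled. The ethanol was taken by the dam, so the dose that reached each embryo is not given in the labels, nor do they say how many litters each group drew on. The p-values therefore measure only the spread between these arrays, which may be technical in part.

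Chromatin packs DNA around histones, whose tails carry acetyl and methyl groups that open or silence genes. Acetyltransferases and methyltransferases write these marks, deacetylases and demethylases erase them, and remodelling complexes such as SWI/SNF and the Chd proteins spend ATP to move nucleosomes. Deacetylases, above all Hdac2, limit synaptic plasticity and memory in the mouse hippocampus, and acetate from ethanol breakdown can feed histone acetylation in the brain. Mutations in many of these genes, among them those of CREBBP, EP300, KMT2C, KMT5B, SETD2, SMARCE1 and ATRX in humans, cause syndromes with intellectual disability.

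No chromatin gene passed the test between ethanol and control mice. By limma, 0 of 158 tested member probes passed an adjusted p of 0.05, against a background of 0% of all 21263 tested probes, and 7 member probes (4.43%) had an unadjusted p under 0.05, against a background of 4.81%. The 7 were split into 4 higher in ethanol and 3 lower in ethanol, where the background shares were 2.45% and 2.35%. Over the 93 members with a tested probe, the probe with the highest mean signal (the brightest) had a median difference of -0.03 on the log2 scale, ethanol minus control, beside 0.00 for all 11401 tested genes. The differences ran from -0.32 for Arid5a to 0.40 for Kat2b, a 1.32-fold change, and 42 were above 0 and 51 below, where 51.9% of all tested genes were above 0. Scaling the arrays to a common median turned this to 57 above and 36 below. Of these brightest probes 4 (4.30%) had an unadjusted p under 0.05, against a background of 4.49%. The limma fit placed the 95% interval inside a 1.5-fold change in 89 members (95.7%), beside 93.3% of all tested genes, and inside a 1.25-fold change in 64 (68.8%), beside 58.7%. The 4 members whose intervals reached past a 1.5-fold change were Kat2b, Crebbp, Ezh1 and Arid5a. The groups overlapped for every tested member probe, where 0.202% of all tested probes did not overlap (0.0894% with ethanol above and 0.113% with ethanol below).

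**Figure D1:**
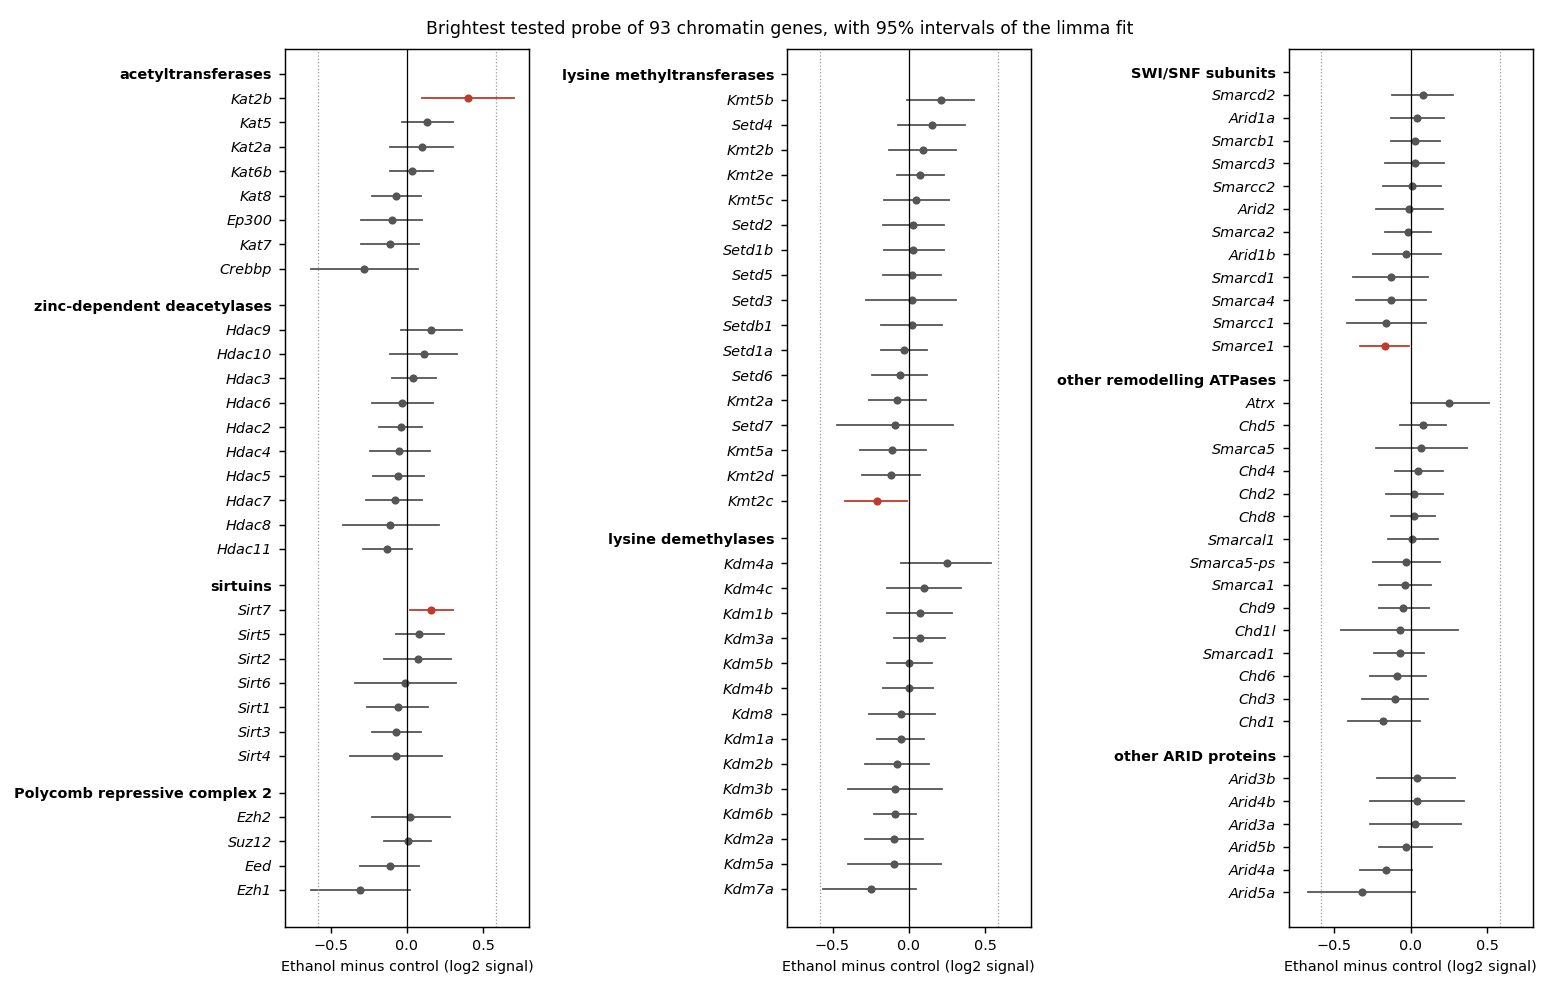
Ethanol minus control in log2 signal for the brightest tested probe of each of 93 members, grouped by role, with 95% intervals of the limma fit as lines (n = 6 arrays per group). Red marks an unadjusted p under 0.05 (Kat2b, Sirt7, Kmt2c and Smarce1), dotted lines mark a 1.5-fold change, and every point lies between -0.32 and 0.40.

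Coverage of the members was wide but uneven between probes of the same gene. A probe counted as detected on an array at a detection p-value under 0.05, and was tested when detected on at least 6 of the 12 arrays. This kept 158 of 231 member probes (68.4%), beside 51.8% of all named probes, and 134 of the 158 were detected on all 12 arrays. Kat6a and Kat14, both acetyltransferases, the demethylase Kdm4d and Arid3c had no tested probe, and were detected on at most 3 of 12 arrays. Of the 73 untested member probes, 55 were detected on 0 arrays, and 69 belonged to genes with another, tested probe. Kmt2c is an example, with 1 probe detected on all 12 arrays and 4 probes on none. No probe was named for Hdac1, Chd7 or Setdb2 in the annotation used here, and they were not analysed.

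Most member promoters were rich in CpG, a sequence feature that the symbol rule did not use. RefSeq promoter windows (GRCm38.p6, 250 bases before and 50 after a transcription start) were found for 78 of the 97 members, in 104 windows. Of these windows 73 (70.2%) were CpG-rich, defined as at least 55% G and C with an observed over expected CpG ratio of at least 0.6. The share was 57.3% of the windows of genes with a tested probe and 30.3% of the windows of all genes. Counted by gene, 57 of the 78 members (73.1%) had a CpG-rich window, beside 65% of genes with a tested probe and 32.7% of all. The median window held 23.5 CpG dinucleotides in the members, 20 in genes with a tested probe and 7 in all genes. The motif TATAAA, searched on either strand, stood in 4 member windows (3.85%), in 7.52% of those of tested genes and in 13.6% of all. Genes with a tested probe are the closer comparison, since most members were detected. These shares are descriptions and were not tested. For 20 members RefSeq gave more than 1 start, and their windows could differ widely, as with Kdm3a (0 to 40 CpG) and Kmt5a (9 to 51).

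**Figure D2:**
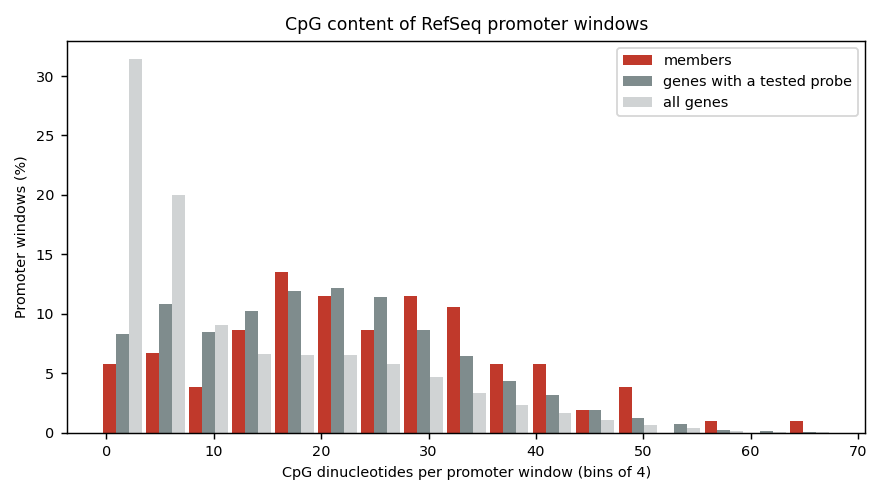
Share of RefSeq promoter windows, in percent, by the number of CpG dinucleotides in the window, in bins of 4, for the members (red, 104 windows), genes with a tested probe (dark grey) and all genes (light grey). The lowest bin holds 5.77% of member windows and 31.4% of all windows.

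The starts of Kmt5b and Kat2b are shown because the probes of these genes gave the largest differences in the direction of ethanol, and because their CpG content differs. Each line gives the 250 bases before a start, 5′ to 3′, with every CpG in capitals. The Kmt5b stretches lie on the plus strand at chr19:3767171-3767420, with 11 CpG, and at chr19:3767639-3767888, with 31. Their whole windows of 300 bases hold 16 and 38 CpG. Of the 2 Kat2b windows, the one shown lies on the plus strand at chr17:53566721-53566970, with 6 CpG.
Kmt5b upstream window: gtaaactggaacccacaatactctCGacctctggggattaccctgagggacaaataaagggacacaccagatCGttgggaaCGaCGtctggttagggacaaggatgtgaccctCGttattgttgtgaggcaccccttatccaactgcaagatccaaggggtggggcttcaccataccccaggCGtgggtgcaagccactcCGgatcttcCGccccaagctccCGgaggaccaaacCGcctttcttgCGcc
Kmt5b downstream window: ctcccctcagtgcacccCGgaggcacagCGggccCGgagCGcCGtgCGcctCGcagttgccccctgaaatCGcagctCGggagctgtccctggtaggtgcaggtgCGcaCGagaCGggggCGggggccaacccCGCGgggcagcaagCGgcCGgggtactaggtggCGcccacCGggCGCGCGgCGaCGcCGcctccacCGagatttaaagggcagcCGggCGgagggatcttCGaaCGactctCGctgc
Kat2b window: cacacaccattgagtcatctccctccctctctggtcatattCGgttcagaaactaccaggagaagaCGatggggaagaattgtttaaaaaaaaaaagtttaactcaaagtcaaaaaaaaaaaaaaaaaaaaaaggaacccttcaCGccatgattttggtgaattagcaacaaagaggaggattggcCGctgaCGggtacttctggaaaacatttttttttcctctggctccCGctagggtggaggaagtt

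Some arrays stood apart from the others. On 4 arrays (ethanol replicates 1 and 3 and control replicates 1 and 4) Ttr, the thyroid hormone carrier made by choroid plexus, had a log2 signal of at most 11.00, against at least 15.56 on the other 8 arrays. Fewer choroid plexus cells and less RNA per cell cannot be told apart here. The split was not limited to Ttr: on the first principal component of all tested probes these 4 arrays lay between 23.11 and 27.81. The other 8 arrays lay between -16.56 and -9.3, and the main fit of ethanol minus control did not include this split. Ethanol replicate 1 also lay at 32.07 on the second principal component, where the other arrays lay between -18.84 and 7.20. For 0 of 93 members did the brightest probe separate these 4 arrays from the other 8, beside 3.83% of all tested genes. All 4 tested red blood cell markers were lower in ethanol mice, with a median difference of -0.57. Each had an unadjusted p under 0.05, against a background of 4.81% of all tested probes. Of the microglia markers 0 of 4 were higher (median -0.08), and of the dividing-cell markers 0 of 2 (median -0.16), with 0 at this p. In each other cell type checked some markers were higher, and 1 of 4 astrocyte markers was at this p. The part of these cell types in the values below was not tested. Hippocampal neuron markers were detected on all 12 arrays for 5 of 5 tested genes, with a mean over the markers, per array, of 11.59 to 11.96 in ethanol and 11.68 to 12.00 in control on the log2 scale. Dividing-cell markers were near the detection limit, with 2 of 4 tested and 0 detected on all arrays.

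Among the writers of acetyl marks, 2 of 15 tested probes had an unadjusted p under 0.05 (13.3%, against a background of 4.81%), in opposite directions. Kat2b, the acetyltransferase PCAF, had log2 signals of 6.10 to 6.84 in ethanol (median 6.71) and 5.91 to 6.60 in control (median 6.28) on its brightest probe. Every control array was exceeded by 5 of the 6 ethanol arrays, and the remaining array, ethanol replicate 3, lay among the lower controls. The difference was 0.40 (95% interval 0.10 to 0.70, adjusted p = 1.00 by limma). It was 0.50 in the 8 arrays not low in Ttr, 0.17 in the authors' processed values and 0.18 without background correction. The other tested Kat2b probe gave 0.05 (-0.23 to 0.34), and the third was detected on 0 arrays.

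Ep300, the coactivator p300, had signals of 6.06 to 6.63 in ethanol (median 6.38) and 6.46 to 7.08 in control (median 6.71) on the dimmer of its tested probes. The lowest 3 ethanol arrays lay below every control array, and the other 3 overlapped the controls. The difference was -0.38 (-0.64 to -0.11, adjusted p = 0.998 by limma). It was -0.18 without the 4 arrays low in Ttr, -0.17 in the authors' processed values and -0.18 without background correction. On its brighter probe, at 10.05 to 10.40 in ethanol and 10.02 to 10.43 in control, Ep300 differed by -0.10 (-0.30 to 0.10). Crebbp, the paralog CBP, was read by 3 dim probes at -0.28 (-0.63 to 0.07), -0.15 and 0.11, detected at best on 5 ethanol and 6 control arrays. Its brightest probe was at -0.43 without the arrays low in Ttr. Kat5, the acetyltransferase Tip60 of DNA repair, differed by 0.13 (-0.03 to 0.30) and by 0.08 on its other probe. The 8 tested members of the class (Crebbp, Ep300, Kat2a, Kat2b, Kat5, Kat6b, Kat7 and Kat8) had a median of -0.02, 4 above 0 and 4 below, and of 0.04 under scaling to a common median.

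Among the zinc-dependent deacetylases Hdac2 to Hdac11, 0 of 15 tested probes had an unadjusted p under 0.05, against a background of 4.81%. Their 10 genes had a median difference of -0.04, 3 above 0 and 7 below (0.02 under scaling to a common median), and ran from -0.13 to 0.16. Hdac2, the deacetylase best known for restraining memory, had signals of 12.40 to 12.62 in ethanol (median 12.53) and 12.47 to 12.70 in control (median 12.56). These ranges overlapped, 1 ethanol array lay below every control array, the difference was -0.04 (-0.18 to 0.10), and its dimmer probe gave 0.03. Hdac2 was among the members with the narrowest spread, with an SD within groups of 0.08. Hdac3, the catalytic subunit of the NCoR corepressor complexes, lay at 11.66 to 11.87 in ethanol and 11.59 to 11.85 in control, with a difference of 0.04 (-0.10 to 0.19). The smallest p-values of the class belonged to Hdac11 (-0.13, -0.29 to 0.03), Hdac9 (0.16, -0.04 to 0.36) and Hdac10 (0.11, -0.11 to 0.33). The other tested Hdac9 probe pointed the opposite way, at -0.16, with detection on 2 ethanol arrays and 5 control arrays.

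The sirtuins, which deacetylate proteins at the expense of NAD, had 1 of 10 tested probes at an unadjusted p under 0.05, against a background of 4.81%. This was Sirt7, a nucleolar enzyme that acts on acetylated histone H3, with signals of 11.55 to 11.72 in ethanol (median 11.61) and 11.37 to 11.62 in control (median 11.44). Control replicate 2, at 11.62, was the single control array inside the ethanol range, and the other 5 controls lay below every ethanol array. The difference of 0.16 (0.02 to 0.30, adjusted p = 1.00 by limma) was 1.12-fold, and the gene's other probe was detected on 0 arrays. Sirt7 also had the narrowest spread of the tested member probes, with an SD within groups of 0.07. Sirt1, the nuclear sirtuin linked with neuronal plasticity, differed by -0.06 (-0.26 to 0.14). The mitochondrial enzymes Sirt3 and Sirt5 differed by -0.07 (-0.23 to 0.09) and 0.08 (-0.07 to 0.24), and the median of all 7 sirtuins was -0.01, or 0.02 under scaling to a common median.

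Lysine methyltransferases held 3 of 28 tested probes at an unadjusted p under 0.05 (10.7%, against a background of 4.81%), and the member probe with the smallest p. Kmt5b, which writes di- and trimethylated H4K20, had log2 signals of 6.42 to 6.96 in ethanol (median 6.59) and 5.85 to 6.52 in control (median 6.06) on probe ILMN_1250037. In scanner units the same probe read 181.9 to 234.4 in ethanol and 153.3 to 199.8 in control. Control replicate 1, at 6.52, was the only control array inside the ethanol range, and the other 5 lay at or below 6.10, under every ethanol array. The difference was 0.54 (0.28 to 0.80, adjusted p = 0.730 by limma), and this probe had the 15th smallest p of all tested probes. It was 0.60 and 0.49 within the 2 beadchips and 0.60 without the 4 arrays low in Ttr, but 0.22 in the authors' processed values. The other 3 tested Kmt5b probes gave 0.21 (-0.01 to 0.43) on the brightest, -0.02 (-0.22 to 0.18) and 0.10 (-0.20 to 0.40), and the remaining probe was detected on 0 arrays. On the brightest Kmt5b probe, signals were 8.95 to 9.56 in ethanol (median 9.11) and 8.82 to 9.17 in control (median 8.91), with 2 of 6 ethanol arrays above every control array.

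Setd2, which writes trimethylated H3K36, differed by 0.22 (0.01 to 0.43, adjusted p = 1.00 by limma; 0.13 in the authors' processed values) on a probe with signals of 7.31 to 7.74 in ethanol (median 7.43) and 6.97 to 7.46 in control (median 7.25). Its brightest probe gave 0.03 (-0.17 to 0.23) and its dimmest -0.21 (-0.55 to 0.12), so the 3 probes spanned 0. Kmt2c, the MLL3 enzyme that marks enhancers with monomethylated H3K4, had signals of 10.64 to 10.89 in ethanol (median 10.74) and 10.78 to 11.28 in control (median 10.91). Every control array exceeded 4 of the 6 ethanol arrays for Kmt2c, and the highest 2 controls were those low in Ttr. The difference of -0.21 (-0.42 to -0.01, adjusted p = 1.00 by limma) was -0.05 without the 4 arrays low in Ttr. Setd4 differed by 0.15 (-0.07 to 0.37). Setd7, a methyltransferase of histone H3 and of other proteins, had a wide spread (SD within groups 0.34) through ethanol replicate 1, at 10.58 beside 11.41 to 11.80 on the other ethanol arrays. The 17 genes of the class had a median of 0.02, 10 above 0 and 7 below, between -0.21 and 0.21.

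**Figure D3:**
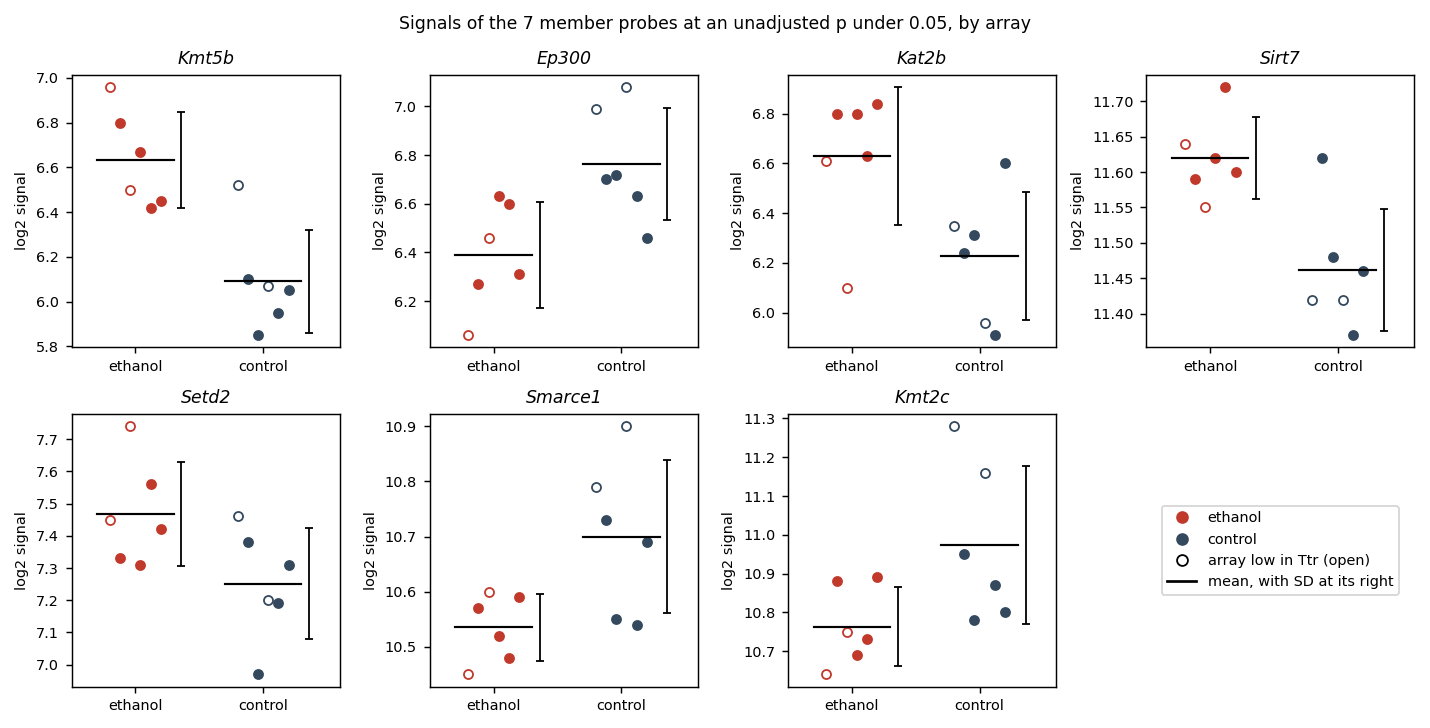
Log2 signal on each of the 12 arrays for the 7 member probes at an unadjusted p under 0.05, ethanol at the left and control at the right of each panel, with the mean as a line and the SD as a bar (n = 6 per group). Open points are the 4 arrays low in Ttr. The groups overlap in every panel, as with Kmt5b at 6.42 to 6.96 in ethanol and 5.85 to 6.52 in control.

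Polycomb repressive complex 2 writes trimethylated H3K27 and keeps developmental genes silent. Its catalytic subunit of non-dividing cells, Ezh1, had signals of 6.24 to 6.78 in ethanol (median 6.56) and 6.44 to 7.35 in control (median 6.72), a difference of -0.31 (-0.63 to 0.02). Without the arrays low in Ttr it was -0.14. Ezh2, the catalytic subunit typical of dividing progenitors, differed by 0.02 (-0.23 to 0.28), and Eed, which binds the mark, by -0.11 (-0.31 to 0.08). With Suz12 the 4 subunits had a median of -0.05, 2 above 0 and 2 below (0.01 under scaling to a common median). Of their 6 tested probes 0 had an unadjusted p under 0.05, against a background of 4.81%.

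The demethylases had 0 of 27 tested probes at an unadjusted p under 0.05, against a background of 4.81%. Their 14 tested genes had a median of -0.05, 5 above 0 and 9 below, and of 0.01 under scaling to a common median. Kdm7a, which removes methyl groups from H3K9 and H3K27, differed by -0.25 (-0.56 to 0.05) on its brightest probe and by -0.14 on the other, and by -0.04 and 0.07 without the arrays low in Ttr. Kdm4a, a demethylase of H3K9 and H3K36, was at 0.25 (-0.05 to 0.54) on a probe that 6 ethanol arrays and 4 control arrays detected. Kdm6b, the demethylase JMJD3 that opposes Polycomb, had signals of 9.50 to 9.71 in ethanol (median 9.61) and 9.58 to 9.77 in control (median 9.69), a difference of -0.09 (-0.23 to 0.05). Kdm6b was also among the members with the narrowest spread, with an SD within groups of 0.08.

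Among the SWI/SNF subunits 1 of 19 tested probes had an unadjusted p under 0.05 (5.26%, against a background of 4.81%). Smarce1, the BAF57 subunit, had signals of 10.45 to 10.60 in ethanol (median 10.55) and 10.54 to 10.90 in control (median 10.71). Its lowest 3 ethanol arrays lay below every control array, and the difference was -0.17 (-0.33 to -0.01, adjusted p = 1.00 by limma). It was -0.09 without the arrays low in Ttr, and the other Smarce1 probe gave 0.06 (-0.11 to 0.24). Smarca4, the BRG1 ATPase, differed by -0.13 (-0.36 to 0.10), and Smarcc1, the BAF155 scaffold, by -0.16 (-0.42 to 0.10). Without the arrays low in Ttr, Smarcc1 was at -0.31. The 12 genes had a median of -0.01, 5 above 0 and 7 below, and of 0.04 under scaling to a common median.

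The remaining remodelling ATPases had 0 of 27 tested probes at an unadjusted p under 0.05, against a background of 4.81%. Their 15 genes had a median of -0.03 (0.03 under scaling to a common median). Atrx, which deposits histone H3.3 in heterochromatin, came nearest, with signals of 6.54 to 7.19 in ethanol (median 6.78) and 6.22 to 6.79 in control (median 6.58). The highest 3 ethanol arrays exceeded every control array, and the difference was 0.25 (0.00 to 0.51). It rests on 1 of 4 Atrx probes, as the others were not tested. Chd5, a neuronal member of the Chd family, differed by 0.08 (-0.07 to 0.23), and Chd1 by -0.18 (-0.41 to 0.06). Chd1l, a remodeller of DNA repair, had the widest spread among the brightest probes, with an SD within groups of 0.35, followed by Setd7 and Crebbp, and dimmer probes of Sirt6 and Chd1 reached 0.49 and 0.42. Smarca5-ps, a pseudogene of the ISWI ATPase gene Smarca5 whose probes may share signal with it, differed by -0.03, and Smarca5 by 0.07.

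The other ARID proteins, which share the DNA-binding ARID fold, had 0 of 11 tested probes at an unadjusted p under 0.05. The background was 4.81%, and their 6 genes had a median of 0.00. Arid5a, also an RNA-binding protein that stabilises cytokine messages, had signals of 5.01 to 6.05 in ethanol (median 5.47) and 5.57 to 6.13 in control (median 5.78). The difference was -0.32 (-0.67 to 0.03), with detection on 3 ethanol arrays and 6 control arrays, and -0.54 without the arrays low in Ttr. Arid4a, a partner of the retinoblastoma protein, differed by -0.16 (-0.33 to 0.01) on its brightest probe, and Arid5b by -0.03 (-0.21 to 0.14).

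Agreement between probes of a gene was limited. Of 41 members with 2 or more tested probes, all probes pointed the same way for 17 (41.5%), beside 50.7% of the 4477 such genes in the whole table. This share also depends on the number of probes per gene, which was not matched. Of the 96 probe pairs 54 (56.2%) had the same sign, beside 58.8%. Over the 12 arrays the deviations of paired probes from their group means had a median Pearson correlation of 0.18 in the members and 0.26 in all genes, and 9.38% of member pairs exceeded 0.5, beside 26.7%. Over the 8 arrays not low in Ttr the medians were 0.10 and 0.16. These correlations are descriptions: the paired values share arrays, and spreads of single genes were small.

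The tested probes lay farthest apart for Kmt5b (-0.02 to 0.54), Setd2 (-0.21 to 0.22), Kdm2b (-0.08 to 0.31) and Crebbp (-0.28 to 0.11). Kdm2b, a demethylase that recruits Polycomb to CpG islands, had its highest value on a probe that 6 ethanol arrays and 2 control arrays detected. Among the 5 members with 4 or more tested probes, the 4 Chd5 probes all lay above 0 (0.02 to 0.12) and the 4 probes of Smarca2, the BRM ATPase, all below (-0.09 to -0.01), though scaling to a common median put 2 Smarca2 probes at 0.03 and 0.04. Chd1 had 2 above and 2 below, Arid4a had 1 above and 4 below, and Kmt5b had 3 above and 1 below. Of the 7 probes at an unadjusted p under 0.05, 4 were the brightest of their gene.

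**Figure D4:**
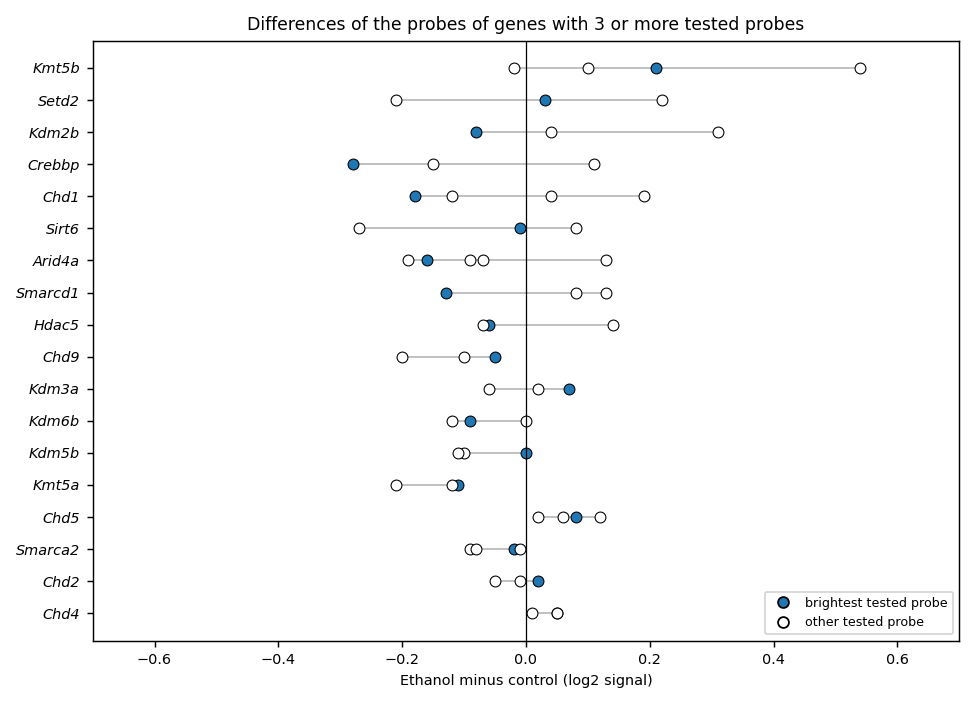
Ethanol minus control in log2 signal for each tested probe of the 18 members with 3 or more tested probes, 1 row per gene, with the brightest probe filled. Kmt5b has the widest row, from -0.02 to 0.54, and 4 Chd5 probes lie between 0.02 and 0.12.

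Each beadchip carried 3 ethanol and 3 control arrays, and 1 member differed between beadchips. A dim probe of the acetyltransferase gene Kat7 had medians of 5.24 in ethanol and 5.17 in control on beadchip 2, against 5.91 in ethanol and 6.05 in control on beadchip 1. The beadchip difference was -0.70 (beadchip 2 minus beadchip 1, adjusted p = 0.0200 by limma), 1 of 6 probes past the threshold among all 21263 (0.0282%), and its brighter probe gave -0.11. Kat7 was chosen after its values were seen. Of the tested member probes 11.4% had an unadjusted p under 0.05 between beadchips, beside 11.2% of all. For the interaction of group and beadchip, 0 member probes passed an adjusted p of 0.05 by limma (0% of all tested probes) and 5 (3.16%) had an unadjusted p under 0.05, beside 4.20%.

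Without the 4 arrays low in Ttr, 8 member probes (5.06%) had an unadjusted p under 0.05, beside 5.09% of all tested probes, and 2 of them, those of Kmt5b and Kat2b, were also among the 7 of all 12 arrays. The others were probes of Smarcc1, Crebbp, Arid4a, Arid5a and, with 2, Chd1. The lowest adjusted p of a member was then 0.666 by limma. The negative differences of Ep300, Kmt2c, Smarce1, Ezh1 and Kdm7a were closer to 0 in that fit, and those of Arid5a, Crebbp and Smarcc1 farther from it.

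**Figure D5:**
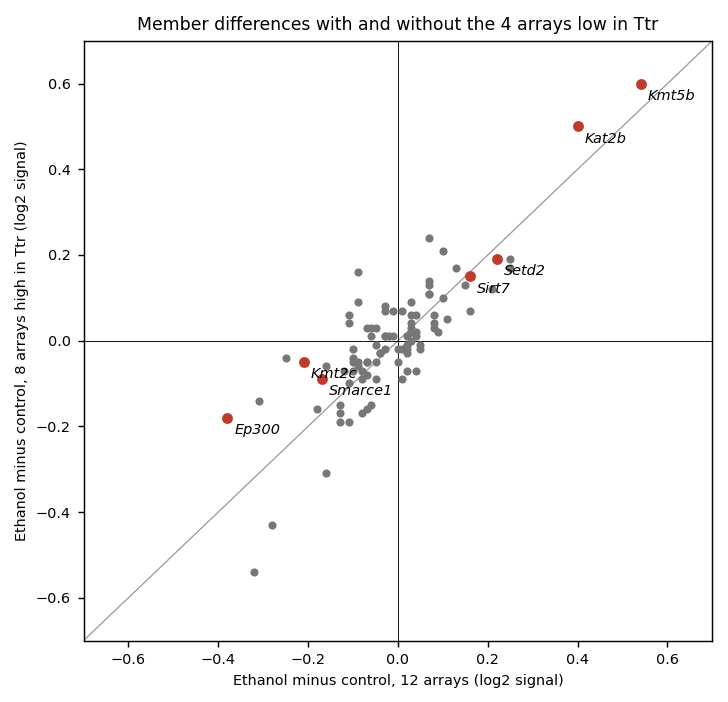
Ethanol minus control in log2 signal over all 12 arrays (horizontal) and over the 8 arrays not low in Ttr (vertical), for the brightest probe of 93 members (grey) and the 7 probes at an unadjusted p under 0.05 (red, named). The diagonal marks equal values. Kmt5b lies at 0.54 and 0.60, Kmt2c at -0.21 and -0.05.

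A list of other chromatin genes outside the symbol rule, here called partner genes, was tested in the same fit. It was made of scaffold subunits, readers, and other writers, erasers and remodellers, and was not limited to the complexes of the members. Of 78 tested genes 36 were above 0 and 42 below, where 51.9% of all tested genes were above 0, with a median of -0.02, and 4 of 141 probes (2.84%) had an unadjusted p under 0.05, against a background of 4.81%. Rbbp7, a histone-binding subunit shared by Polycomb repressive complex 2 and deacetylase complexes, had signals of 7.91 to 8.24 in ethanol (median 8.00) and 7.49 to 7.82 in control (median 7.78) on 1 probe. The groups did not overlap there, as for 1 of the 141 partner probes and 0.202% of all tested probes, and the difference was 0.33 (0.15 to 0.52, adjusted p = 0.993 by limma). Its 3 brighter probes gave 0.04, 0.00 and 0.00. The other partner probes were those of Baz1b, an ISWI partner (0.38), Men1, the menin scaffold of Kmt2a complexes (0.40, with -0.08 and 0.02 on brighter probes), and Jmjd6 (-0.16).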

How the data were processed

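Signals came from 12 bead arrays, labelled with Cy3. The deposited scanner table holds linear bead intensities with no normalization between arrays (medians 132.6 to 152.1), and a detection p-value beside each, per the file headers. GenomeStudio 1.9.0 is named in the submitters' processing notes, and its settings are not stated there. The authors also deposited processed intensities of the same arrays, with a median of 141.6 in every column. Their method is not given in the sources used here. They served as an alternative, on the log2 scale after adding 16.

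Background was removed with normexp through the detection p-values (offset 16), followed by quantile normalization and log2, in limma 3.58.1 (R 4.3.3). The offset draws differences of dim probes towards 0, but removing the background made some of them larger. Kat2b differed by 0.40 with it and by 0.18 without background correction. On the dimmer tested probe of Ep300 these values were -0.38 and -0.18. The authors' processed values gave 0.17 and -0.17 for the same 2 probes. Of 45281 probes 21263 were tested. Probe names came from the platform annotation, updated by Entrez number with the RefSeq table of GRCm38.p6: 34885 had 1 gene, 18 several and 10378 none. All 231 member probes matched. The 12 arrays entered 1 limma fit (lmFit, eBayes) of ethanol minus control, and p-values were adjusted by Benjamini and Hochberg's method across every tested probe. The fit was also run on simulated arrays with independent noise for each probe. These lack the differences between arrays described above, so that run says nothing about them. Detected probes per array ran from 20804 to 21672, and the number of arrays limits the precision.

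The members, role classes and partner list were chosen with earlier results of these data known. Named members were those with a probe at an unadjusted p under 0.05, the 3 smallest p-values per class, a fixed set (Hdac1, not analysed here, Hdac2, Hdac3, Sirt1, Kmt5b, Ezh2, Crebbp, Ep300, Smarca4, Atrx), the 3 widest and narrowest spreads, and those whose probes differed most or numbered 4 or more, with the 4 partner genes of smallest p. Alternatives covered background, offset, scaling, detection filter, array weights, beadchip and replicate blocks, and left-out arrays.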

Additional observations from a re-analysis of the deposited data

Results flagged for a closer look

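Among 39 named member probes in 2 groups each, 6 of 78 groups of 6 arrays (7.69%) had a lone array whose gap to its neighbour exceeded Dixon's critical value, beside 5.80% of the groups of all tested probes. Chance gives about 1 in 20 for probes not chosen by their values, and these 39 were named partly for a wide or narrow spread or a small p. Kmt5b (ILMN_1250037) had control replicate 1 at 6.52, with the next control at 6.10. Without it the difference was 0.63. Kat2b had ethanol replicate 3 at 6.10, the next at 6.61, and 0.51 without it. Crebbp had ethanol replicate 5 at 5.21, the next at 5.80, and -0.16 without it. Setd7 had ethanol replicate 1 at 10.58, the next at 11.41, and 0.09 in place of -0.09 without it. Eed had ethanol replicate 4 at 8.60, the next at 8.33, and -0.17 without it. Kdm4a had ethanol replicate 1 at 6.23, the next at 5.84, and 0.16 without it. Of these 6 values, 4 come from arrays low in Ttr (ethanol replicate 1 for Setd7 and Kdm4a, ethanol replicate 3 and control replicate 1), and the part of this in the values was not tested.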

How the results depend on the processing

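In every fit of ethanol minus control, 0 probes passed an adjusted p of 0.05 among all tested probes, members included. Between 789 and 2088 had an unadjusted p under 0.05. The lowest adjusted p for ethanol minus control in any of these limma fits was 0.227, without the 4 arrays low in Ttr. Without the filter on detection 2088 of 45281 probes had an unadjusted p under 0.05. The count of 7 member probes at an unadjusted p under 0.05 was 13 within beadchip 2 and 4 with the replicate block. When single arrays were left out it lay between 4, with ethanol replicate 5 removed, and 11, with ethanol replicate 2 removed. The remaining fits gave 6 to 9. The median difference of member genes was 0.03 when arrays were scaled to a common median, with 57 members above 0 and 36 below, against -0.03 with quantile normalization. Over all probes that scaling gave a median of 0.05. It put 942 probes higher and 256 lower in ethanol at this p, among them 7 and 1 of the members. With single arrays left out the median ran from -0.04 to 0.00. None of the 7 member probes changed sign under any setting. The labels do not say that same-numbered arrays are pairs, and they were not treated as such: their deviations correlated from -0.248 to 0.328, over 0.1 in 4 of 6, and 1 of 6 ethanol arrays correlated best with its own number. The cause of these shifts was not tested. Members read by dim probes, such as Crebbp, Kdm4a and Arid5a, are limited by signal near the detection limit.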
